A study of Mus musculus with 59 samples.

Results

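Microglia, the macrophages that live in brain tissue, were grown from mouse pups and given lipopolysaccharide (LPS, a cell wall component of Gram-negative bacteria), and cultures without Tbk1 were compared with cultures that kept 1 copy of it. The comparison rests on 10 of the 59 RNA-seq libraries of the series, 5 labelled KO_LPS and 5 labelled HET_LPS. They were taken by their titles, and no measured value entered the choice. KO cultures were Tbk1 fl/fl Cx3CR1-Cre+, so both copies of the gene could be deleted. HET cultures were Tbk1 fl/+ Cx3CR1-Cre+, so 1 copy could be deleted and 1 was intact. Both groups carried the Cre recombinase, which the Cx3cr1 promoter drives in cells that express that gene, so the presence of Cre does not differ between them. WT cultures were Tbk1 fl/fl Cx3CR1-Cre-, had floxed alleles without Cre, and are given only beside the other groups. Microglia came from newborn pups (postnatal day 0 or 1), were plated for 16 h in serum-containing medium and were then treated for 24 h with LPS at 100 ng/mL or kept in medium alone (untreated). Per the labels the 5 replicates of a genotype were independent cultures. The libraries are of bulk RNA, so fewer cells of a kind and less RNA per cell cannot be told apart in any value below.

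TBK1 is a kinase that acts downstream of several sensors. When LPS binds TLR4, the adaptor MyD88 leads to NF-kB and MAP kinases, and the adaptor TRIF leads to TBK1 and the related kinase IKK-epsilon, which phosphorylate the transcription factor IRF3. IRF3 then drives interferon beta, which is secreted, binds its receptor on the same and neighbouring cells and induces interferon-stimulated genes through STAT2 and IRF9. TBK1 is also known to phosphorylate autophagy receptors and the cell death kinase RIPK1.

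Levels below are TPM (transcript abundances corrected for gene length and scaled to the same total in every library). A difference is KO minus HET on the log2(TPM + 1) scale, given as estimate ± SE from limma's moderated test with a p-value adjusted over all genes, and a gene is called where that adjusted p is under 0.05. This scale understates the change of genes with low TPM. Values in a list follow libraries 1 to 5 of each genotype.

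The targeted transcript followed the labels. Tbk1 (chr10:121546455-121586794, minus strand, mm10) had 12.1, 19.4, 17.7, 25.8 and 15.2 TPM in KO libraries, against 57.3, 60.3, 56.5, 61.8 and 66.7 TPM in HET libraries. Every KO library lay below every HET library, and transcript remained in all 5 KO libraries. Tbk1 differed by -1.73 ± 0.14 (adjusted p = 2.2e-12). WT cultures with LPS averaged 90.9 TPM.

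Of the 15 listed genes that encode TBK1, its partners and the adaptors upstream, 2 were called higher in KO and 5 lower. Azi2 (NAP1) and Tbkbp1, which encode scaffold proteins that bind TBK1, fell by 0.63 ± 0.09 and 0.72 ± 0.11 (adjusted p = 5.5e-07 and 3.3e-06). Ticam1, which encodes TRIF, fell by 0.58 ± 0.11 (adjusted p = 6.1e-05). Sting1, the receptor for cyclic dinucleotides, had 48.4, 49.6, 51.5, 43.5 and 33.2 TPM in KO libraries, against 28.7, 22.5, 23.7, 33.1 and 22.1 TPM in HET libraries. The groups of Sting1 values were separate, although KO 5 and HET 4 lay next to each other, and the difference was 0.78 ± 0.15 (adjusted p = 1.2e-04). Mavs, the adaptor of the cytosolic RNA sensors, was also higher, by 0.59 ± 0.08 (adjusted p = 5.6e-07). Ikbke, which encodes IKK-epsilon, had 154, 166, 155, 161 and 136 TPM in KO libraries, against 228, 189.6, 239, 248 and 176 TPM in HET libraries. Every KO library of Ikbke lay below every HET library, although the gene was not called (-0.47 ± 0.21, adjusted p = 0.0987). Irf3 was not called either (0.05 ± 0.10, adjusted p = 0.816).

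The 10 libraries held 12430 to 13540 genes with at least 1 TPM. The 50 most abundant genes took 35.1% to 38.3% of the summed TPM in KO libraries and 32.8% to 34.9% in HET libraries. The mitochondrial share was 2.31% to 5.89% in KO libraries and 2.10% to 4.56% in HET libraries. Markers of astrocytes (summed TPM 127.8 to 290.2 in KO, 123.8 to 220.5 in HET), oligodendrocytes (225.9 to 867.3 and 259.1 to 692) and neurons (40.5 to 97.95 and 42.3 to 91.1) overlapped between the genotypes, and none of their 37 tested members was called. Vascular and stromal markers summed to 18.2 to 29.7 TPM in KO and 12.7 to 18.3 TPM in HET, with 1 of 11 higher and 1 lower. Lymphocyte markers summed to at most 1.224 TPM in any of these libraries. Neutrophil markers summed to 241.3 to 360.2 TPM in KO and 223.6 to 483.4 TPM in HET. Of their 4 tested members 1 was called, Camp, which was higher without overlap (1.07 ± 0.16, adjusted p = 1.2e-06). Markers of border macrophages and monocytes stood apart, with 2168 to 3471 TPM in KO and 705.2 to 1649 TPM in HET. In KO libraries most of that sum came from Clec4n and Pf4, and the list is described with the genes that rose. Siglech, a defining microglial lectin, was near 0 in both LPS groups. Levels of Y-linked genes and Xist showed that cultures differed in the sex of their pups, with Y-linked genes near 0 in KO 3, 4 and 5 and in HET 1, and Xist near 0 in HET 3 and 5. With the Y-linked level as a term in the fit, 1817 genes were higher and 1747 lower.

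Of 15908 genes tested, 1985 were higher in KO (12.5%) and 1827 were lower (11.5%), and the median difference over all genes was 0.02. The counts of each gene list are to be read against these shares. The larger changes were mostly downward. Differences of at least 2 in size were found for 46 genes called higher and 93 called lower, and of at least 3 for 5 and 36 genes. A difference below -4 was reached by 13 genes, and none lay above 4. All 5 KO libraries lay above all 5 HET libraries for 1034 genes (6.5% of those tested) and below them for 1096 (6.89%). The median SD of the log2 values was 0.224 in KO and 0.189 in HET over 10070 genes with at least 5 TPM, and 60.8% of those genes varied more among the KO cultures.

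**Figure D1:**
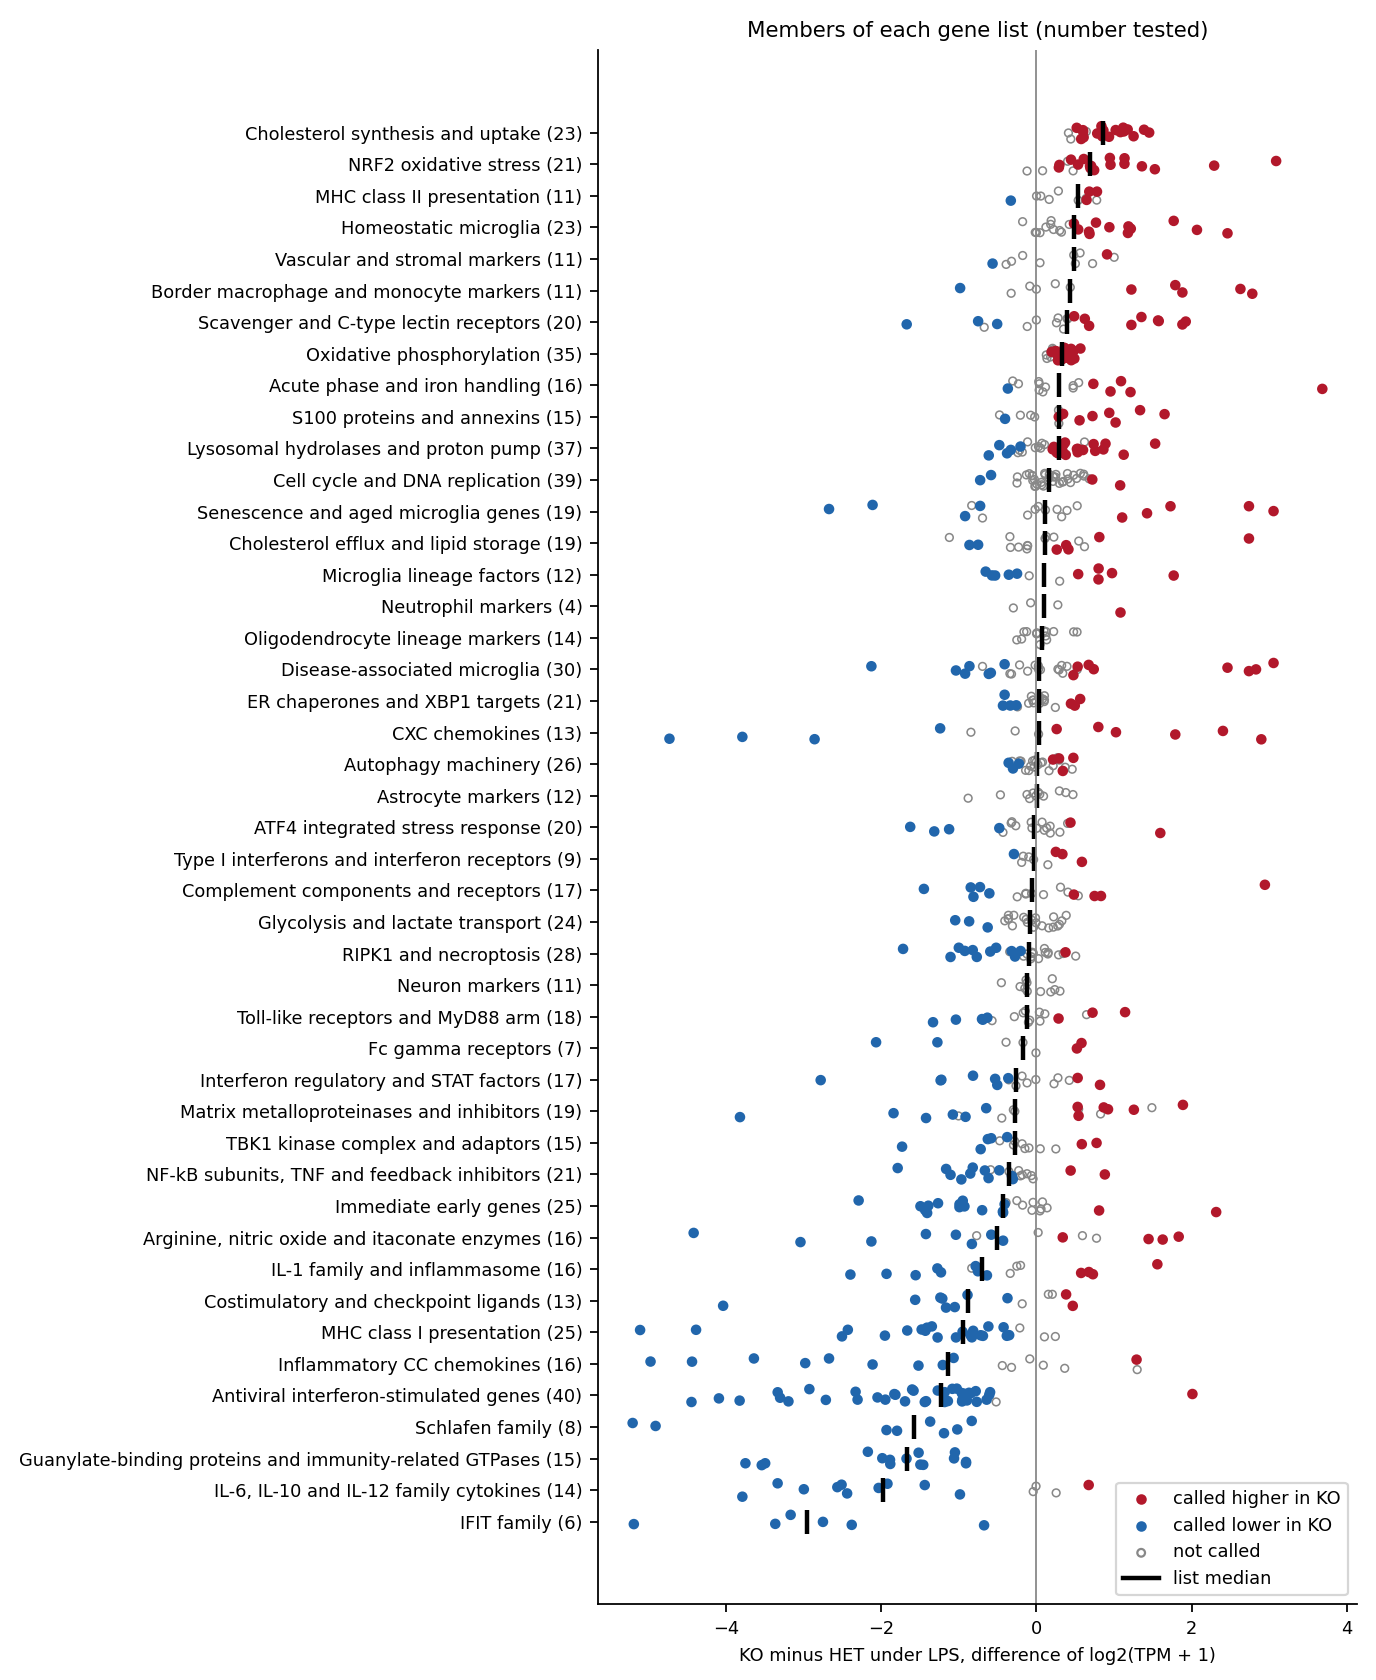
Difference of log2(TPM + 1) between KO and HET libraries with LPS for each tested member of the gene lists, which run from the highest list median at the top to the lowest at the bottom, with the number of members tested in parentheses. Red points were called higher in KO, blue points lower, open points were not called, and black bars are list medians. The IFIT family at the bottom has a median of -2.96 and the cholesterol list at the top 0.86.

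Interferon-stimulated genes lay at or near the bottom of the list ordering, where the IL-6, IL-10 and IL-12 cytokine list (median -1.98) stood among them. All 6 tested IFIT genes, which encode proteins that bind foreign RNA, were called lower (median -2.96). The same held for all 8 Schlafen genes (median -1.58) and for all 15 tested guanylate-binding proteins (GBPs) and immunity-related GTPases, which attack membranes around intracellular pathogens (median -1.67). Of 40 tested antiviral genes outside those families, 38 were lower and 1 was higher (median -1.23). Read against the 11.5% of all genes called lower, these are shares of 95% or more. KO and HET libraries did not overlap for 5 of 6 IFIT, 7 of 8 Schlafen, 11 of 15 GTPase and 28 of 40 antiviral genes, against 6.89% of all genes.

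Promoters are shown here because many of these genes share a sequence that interferon-activated factors are known to bind, the interferon-stimulated response element (ISRE), searched as GAAA, any 2 bases, GAAA on either strand. The window was 250 bases before to 50 after each RefSeq start (GRCm38.p6), and 10833 of the 15908 tested genes had one. The stretches of 3 genes lower in KO follow 5′ to 3′ in the direction of transcription, with each match in capitals, which appears as its complement where it lies on the other strand.
Rsad2 chr12:26456523-26456612: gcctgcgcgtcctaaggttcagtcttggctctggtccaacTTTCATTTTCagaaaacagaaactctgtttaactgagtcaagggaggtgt
Cxcl10 chr5:92349053-92349139: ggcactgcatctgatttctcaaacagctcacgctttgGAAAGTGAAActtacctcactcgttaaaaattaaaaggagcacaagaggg
Ifit3 chr19:34583333-34583456: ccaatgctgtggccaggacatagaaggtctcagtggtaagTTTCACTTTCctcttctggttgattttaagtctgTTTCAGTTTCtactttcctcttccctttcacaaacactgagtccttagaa

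The Rsad2 and Cxcl10 stretches lie on the minus strand and the Ifit3 stretch on the plus strand. The matches began 120, 213, and 156 and 122 bases before the starts of Rsad2, Cxcl10 and Ifit3. An ISRE was found in 430 of all 10833 promoters (3.97%). Among genes called lower it was in 116 of 1371 (8.46%), and among those lower by at least 2 in 26 of 66 (39.4%). Among genes called higher it was in 56 of 1529 (3.66%), and among those higher by at least 2 in 1 of 32 (3.12%). By list, 5 of 6 IFIT, 9 of 10 GTPase, 12 of 27 antiviral, 3 of 7 Schlafen and 5 of 20 class I promoters held a match. Several of the lowest genes, Slfn4, Slfn1, Oasl1, Ms4a4c, H2-Q6, H2-Q7 and Ifit2, had no match in this window. A match is a description of the letters and no evidence of binding.

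**Figure D2:**
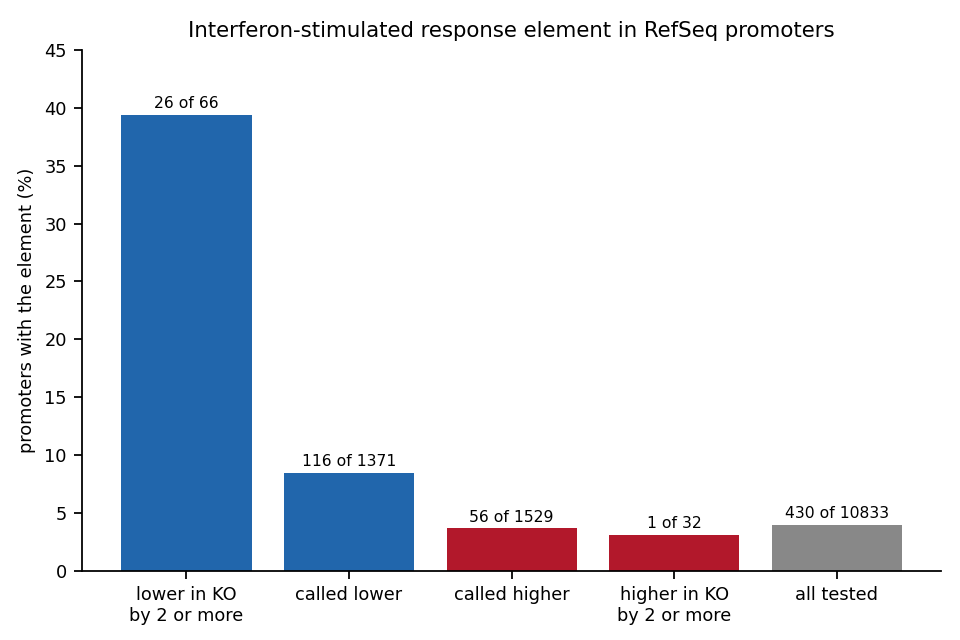
Share of RefSeq promoters (percent) that hold the ISRE letters on either strand, for genes lower in KO by at least 2 on the log2 scale, all genes called lower, all genes called higher, genes higher by at least 2, and all tested genes with a promoter. Numbers above the bars are genes with the element of genes with a promoter, and the share is 39.4% in the first bar against 3.97% in the last.

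Slfn4, a Schlafen protein of myeloid cells, had 12.7, 0.708, 5.23, 1.70 and 1.17 TPM in KO libraries, against 109, 163, 83.9, 109 and 339 TPM in HET libraries. KO 1 and HET 5 were the highest of their groups, and the lowest HET library was over 6 times the highest KO library. The difference was -5.20 ± 0.32 (adjusted p = 1.6e-15). Ifit1bl1 had 19.6, 1.33, 4.74, 1.64 and 1.44 TPM in KO libraries, against 133, 276, 54.9, 86.5 and 630.1 TPM in HET libraries. KO 1 and HET 5 again led their groups, which did not overlap, and the difference was -5.19 ± 0.43 (adjusted p = 3.3e-12). Rsad2, which encodes the antiviral enzyme viperin, had 115, 8.90, 35.7, 11.1 and 9.32 TPM in KO libraries, against 241, 685, 158, 174 and 1639 TPM in HET libraries. KO 1 came within a factor of 1.5 of the lowest HET library, HET 3, and the difference was -4.09 ± 0.51 (adjusted p = 3.8e-08). Ifit3 had 486, 67.2, 227, 70.8 and 41.1 TPM in KO libraries, against 745, 901, 583, 632 and 1271 TPM in HET libraries. Here too KO 1 approached HET 3 without reaching it, and the difference was -2.75 ± 0.40 (adjusted p = 9.2e-07).

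Other members followed the same order. Oasl1, an oligoadenylate synthetase-like protein, and Oas3, an antiviral synthetase, fell by 4.44 ± 0.40 and 3.82 ± 0.32 (adjusted p = 2.1e-11 and 4.6e-12). Ifi44, Cmpk2 (a mitochondrial nucleotide kinase) and Isg20 (an exonuclease) fell by 3.33 ± 0.30, 3.30 ± 0.47 and 3.20 ± 0.37. Among the GTPases, Gbp4 had 3.88, 0.391, 2.79, 0.881 and 0.644 TPM in KO libraries, against 24.0, 40.3, 19.1, 21.8 and 72.9 TPM in HET libraries. The highest KO value of Gbp4 was well under the lowest HET value, and the difference was -3.75 ± 0.27 (adjusted p = 5.6e-14). Iigp1 and Tgtp2 fell by 3.54 ± 0.37 and 3.50 ± 0.32. Tgtp1 and Tgtp2 are near-identical copies, so how their reads were divided is uncertain. Ifitm3, which encodes a membrane protein that blocks virus entry, was the only tested antiviral gene not called (-0.52 ± 0.39, adjusted p = 0.406).

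The level of these genes differed between cultures of 1 genotype. Among the KO libraries, KO 1 was the highest for 33 of the 40 antiviral genes, KO 3 for 6 and KO 4 for 1. Among the HET libraries, HET 5 was the highest for 28 and HET 2 for 8. The mean log2(TPM + 1) of the IFIT family was 5.84, 3.41, 4.77, 3.50 and 3.00 in KO libraries, against 6.96, 7.33, 6.36, 6.50 and 7.98 in HET libraries. That of the GTPases was 5.06, 3.67, 4.64, 3.86 and 3.69 in KO libraries, against 6.05, 6.34, 5.60, 5.75 and 6.79 in HET libraries. KO 1 and KO 3 stood between the other KO libraries and the HET libraries on both lists. Tbk1 itself was lowest in KO 1. Without KO 1 the list medians were -3.50 for IFIT genes, -1.83 for GTPases and -1.47 for antiviral genes.

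**Figure D3:**
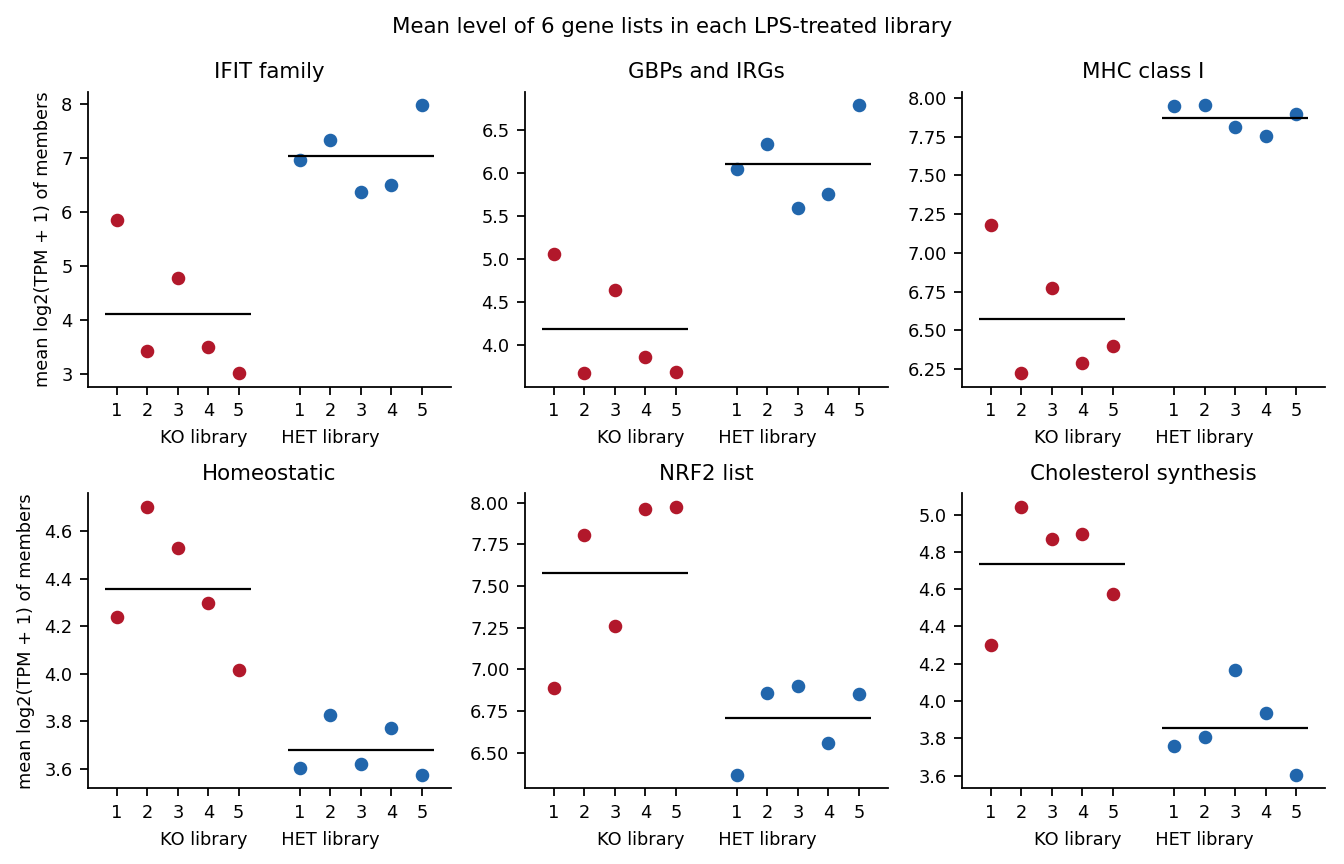
Mean log2(TPM + 1) of the members of 6 gene lists in each LPS-treated library, KO libraries 1 to 5 left in red and HET libraries 1 to 5 right in blue, with the group mean as a line. KO 1 lies nearest to the HET libraries for the IFIT family (5.84), the GBPs and GTPases (5.06) and MHC class I (7.18), and it falls among the HET libraries for the NRF2 list (6.89).

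Ifnb1, which encodes interferon beta, was at most 0.499 TPM in any KO library and 0.745 TPM in any HET library, too low for the filter, so interferon itself could not be compared 24 h after LPS. Of 9 tested genes for interferon and IL-10 receptor chains and Janus kinases, 3 were higher and 1, Il10ra, was lower (-0.29). Ifngr1 (interferon gamma receptor) rose by 0.59 ± 0.11 (adjusted p = 1.0e-04), Ifnar2 (interferon alpha and beta receptor) by 0.25 ± 0.06 (adjusted p = 0.00219) and Ifnar1 by 0.34 ± 0.11 (adjusted p = 0.0234), and both Ifnar calls were lost with median-of-ratios scaling. Of 17 tested interferon regulatory and STAT factors, 7 were lower and 2 higher (median -0.26). Irf7, the factor that amplifies interferon production, had 563, 98.4, 275, 117 and 103 TPM in KO libraries, against 1208, 1420.1, 1035, 1117 and 1464 TPM in HET libraries. The HET libraries lay close together, the KO libraries spread over more than 5 times, and the groups did not overlap (-2.78 ± 0.30, adjusted p = 1.5e-09). Stat2 fell by 1.23 ± 0.18 and Irf9 by 0.50 ± 0.07 (adjusted p = 1.2e-06 and 1.3e-06). Batf3, a transcription factor of dendritic cells, rose by 0.82 ± 0.19 (adjusted p = 0.00119).

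Genes of MHC class I presentation, which display peptides from inside the cell, fell as a group: 22 of 25 tested members were called lower and none higher (median -0.95), and 16 did not overlap between genotypes. H2-Q6, a class Ib molecule of the Qa-2 group, had 20.2, 2.38, 9.44, 5.77 and 6.01 TPM in KO libraries, against 358, 316, 233, 210.2 and 305 TPM in HET libraries. The HET libraries were uniform and each was at least 10 times any KO library (-5.11 ± 0.26, adjusted p = 8.6e-18). H2-Q7 (-4.39 ± 0.24), H2-T10 (-2.51 ± 0.18) and H2-Q4 (-2.43 ± 0.16) followed. These Q and T genes have near-identical copies, so reads may have been divided among them. The classical chain H2-K1 had 2343, 1091, 1494, 1226 and 1248 TPM in KO libraries, against 4415, 3917, 3544, 3850.3 and 4176 TPM in HET libraries. No KO library reached a HET library, and H2-K1 fell by 1.48 ± 0.13 (adjusted p = 5.9e-12). H2-D1 fell by 1.35 ± 0.11, the shared light chain B2m by 1.04 ± 0.12, the peptide transporter Tap1 by 1.66 ± 0.17 and the class I transactivator Nlrc5 by 1.27 ± 0.20. The chaperones Calr (0.24) and Pdia3 (0.10) and the proteasome activator Psme2 (-0.21) were not called. MHC class II did not fall as a group. Of its 11 members 3 were higher, 1 was lower and 7 were not called, against 12.5% and 11.5% of all genes called higher and lower. H2-DMa and H2-DMb1, which load peptides onto class II, rose by 0.78 ± 0.17 and 0.68 ± 0.16 (adjusted p = 3.5e-04 and 8.3e-04), while Ctss, a protease that prepares class II for loading, fell by 0.33 ± 0.11 (adjusted p = 0.0184), a call lost with median-of-ratios scaling. The number of class II genes called higher was 5 without KO 1 and 5 without HET 3.

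Secreted signals for other immune cells were mostly lower. Of 16 tested CC chemokine and receptor genes, 9 were lower and 1 was higher (median -1.14). Ccl7 had 65.8, 3.12, 19.8, 4.26 and 8.12 TPM in KO libraries, against 321, 487, 238, 227 and 979 TPM in HET libraries. Ccl2 had 319, 21.4, 134, 63.2 and 173 TPM in KO libraries, against 1554, 2567, 2025, 1559.8 and 4094 TPM in HET libraries. Both attract monocytes through CCR2, both were separate between genotypes with KO 1 highest among the KO libraries, and they fell by 4.97 ± 0.46 and 4.44 ± 0.46 (adjusted p = 4.2e-11 and 6.8e-10). Ccl5, a T cell attractant, had 2895, 1059, 1073, 617 and 1539 TPM in KO libraries, against 9546, 11764, 8695, 8092 and 12090.0 TPM in HET libraries. Ccl5 was among the more abundant transcripts of both groups and fell by 2.98 ± 0.43 (adjusted p = 6.7e-07). Ccl4 and Ccl3, inflammatory chemokines of macrophages, fell by 2.67 ± 0.32 and 2.11 ± 0.28. Ccl24 was the CC chemokine called higher (1.29 ± 0.31, adjusted p = 0.00163), at 4.50 TPM or less in every library.

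The CXC chemokines divided. Of 13 members, 4 were lower and 6 higher. The 3 ligands of CXCR3, which draw T and natural killer cells, were all lower. Cxcl10 had 292, 13.4, 82.0, 19.2 and 9.58 TPM in KO libraries, against 871, 1442, 586, 604 and 2184 TPM in HET libraries, with KO 1 again nearest to the HET libraries (-4.73 ± 0.53, adjusted p = 3.4e-09). Cxcl9 was at most 0.526 TPM in KO libraries and at least 9.32 TPM in HET libraries (-3.79 ± 0.19), and Cxcl11 fell by 2.86 ± 0.36. The annotation classes Cxcl11 as a polymorphic pseudogene, so its transcript may not stand for a working ligand. Among those higher, Pf4, a platelet and macrophage chemokine, had 1059, 762, 1301, 1083 and 823 TPM in KO libraries, against 292, 214, 624, 602 and 78.9 TPM in HET libraries. All KO libraries exceeded all HET libraries (1.79 ± 0.33, adjusted p = 5.3e-05). Ppbp, which lies beside Pf4 in a chemokine cluster, rose by 2.40 ± 0.17 (adjusted p = 5.7e-14). Cxcl13, a B cell attractant, had 122, 9.78, 36.8, 1.46 and 1.44 TPM in KO libraries, against 0.755, 0.572, 0.437, 1.12 and 0.552 TPM in HET libraries. Its excess lay in KO 1, KO 3 and KO 2, while KO 4 and KO 5 were just above the HET libraries (2.90 ± 0.55, adjusted p = 6.8e-05).

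**Figure D4:**
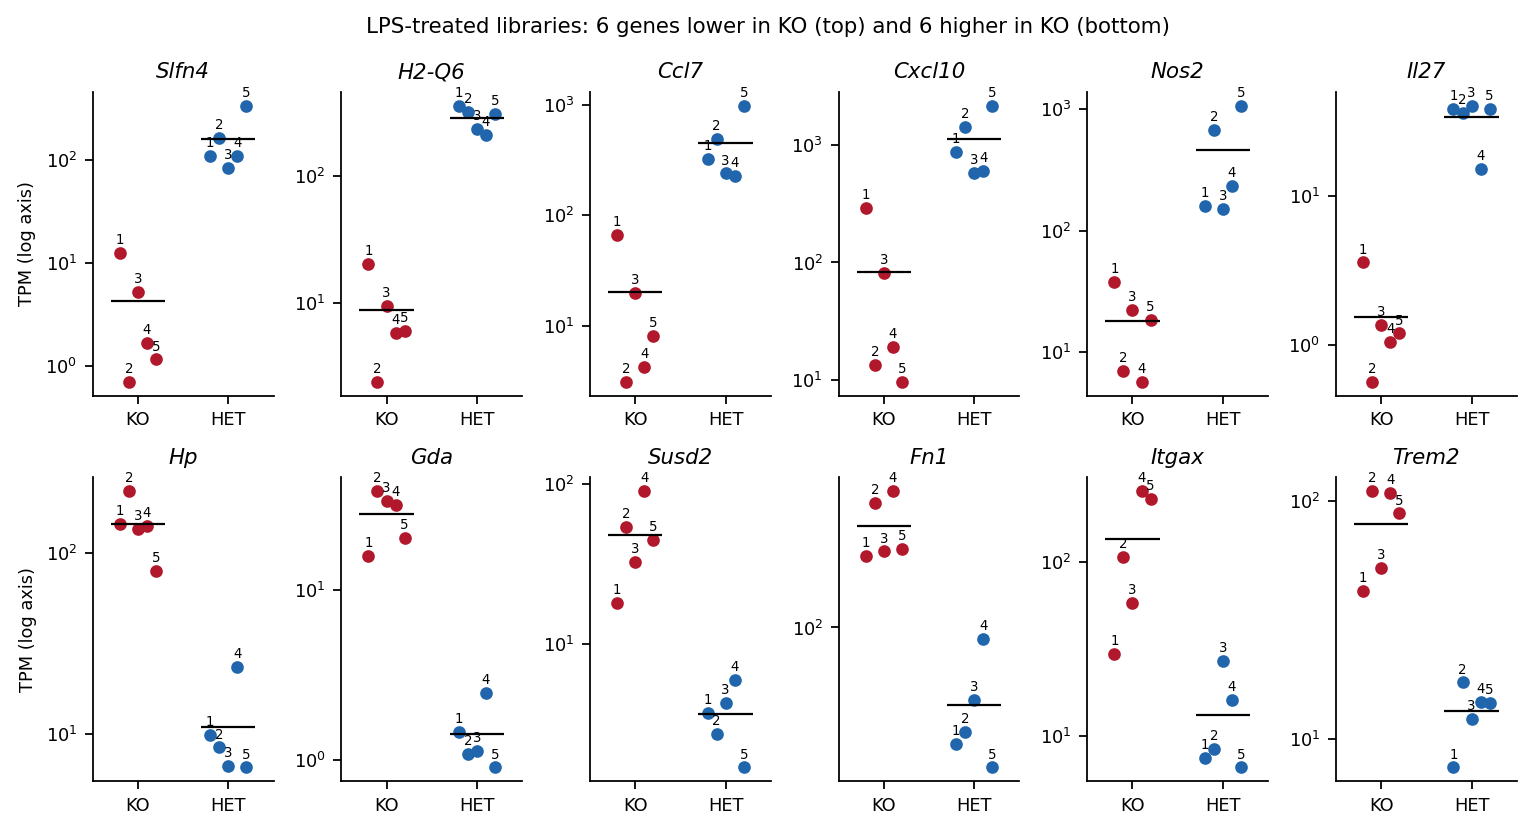
TPM of 12 genes in each LPS-treated library on log axes, KO in red left of HET in blue, with library numbers beside the points and group means as lines. The upper row shows 6 genes lower in KO and the lower row 6 genes higher in KO, and the groups do not overlap in any panel. KO 1 is the highest KO library in all 6 upper panels.

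In the list of IL-6, IL-10 and IL-12 family cytokines, which also held Il15, Csf1 and Csf2, 10 of 14 tested members fell and 1 rose (median -1.98). Il27, whose p28 subunit pairs with EBI3, had 3.60, 0.569, 1.36, 1.05 and 1.20 TPM in KO libraries, against 38.6, 36.2, 40.5, 15.2 and 38.3 TPM in HET libraries. The groups were far apart even with HET 4 well below the other HET libraries (-3.79 ± 0.21, adjusted p = 5.6e-17). Its partner Ebi3 was not called (-0.04 ± 0.15, adjusted p = 0.917). Il12b, the p40 chain shared by IL-12 and IL-23, had 1.97, 6.06, 3.16, 7.70 and 17.1 TPM in KO libraries, against 29.6, 84.4, 56.5, 32.6 and 87.5 TPM in HET libraries. Here KO 5 and not KO 1 was highest (-3.00 ± 0.34, adjusted p = 5.9e-09). Il12a (-0.00 ± 0.26) and Il23a (0.25 ± 0.23), its partner chains, were not called. Il10, which restrains inflammation, fell by 2.57 ± 0.26, and the growth factors Csf3 and Csf2 by 2.44 ± 0.25 and 2.51 ± 0.27. Il6 had 245, 312, 437, 988 and 1653 TPM in KO libraries, against 1895, 2036, 2626, 1965 and 2146 TPM in HET libraries. KO 5 came close to the HET libraries, which were uniform (-1.92 ± 0.35, adjusted p = 4.4e-05). Csf1, a survival factor of microglia, rose by 0.67 ± 0.25 (adjusted p = 0.0458). In the IL-1 list, 8 of 16 tested members were lower and 4 higher. Il1a had 969, 787, 1358, 3568 and 4543 TPM in KO libraries, against 8438, 8572, 10171, 9514 and 9739 TPM in HET libraries. KO 4 and KO 5 were the highest of the KO libraries for Il1a, and the groups did not overlap (-2.40 ± 0.35, adjusted p = 1.1e-06). Il1b had 6629, 5702.5, 7333, 11281 and 13397 TPM in KO libraries, against 13104, 14415, 17462, 15715 and 14527 TPM in HET libraries. Only KO 5 reached above HET 1, the lowest HET library. Il1b was not called (-0.83 ± 0.57, adjusted p = 0.352), with an SE pooled over all groups of the model. Pycard, the inflammasome adaptor ASC, rose by 1.56 ± 0.25 (adjusted p = 3.8e-06), while Casp4 fell by 1.28 ± 0.20.

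Among NF-kB subunits, TNF and their feedback inhibitors, 11 of 21 were lower and 2 higher (median -0.35). Tnf had 276, 168, 169, 318 and 495 TPM in KO libraries, against 1052, 799.8, 956, 819 and 927 TPM in HET libraries. No KO library came near the HET libraries (-1.79 ± 0.23, adjusted p = 7.0e-08). The inhibitors Tnfaip3 (A20), Nfkbib and Nfkbia fell by 1.11 ± 0.15, 0.97 ± 0.11 and 0.62, and Nfkbiz, a cofactor of secondary NF-kB targets, by 1.16 ± 0.11. Nfkb1 (-0.20), Nfkb2 (-0.04) and Sod2 (-0.06) were not called, and Nfkbie and Relb were higher (0.88 and 0.44). Of 18 Toll-like receptor and adaptor genes, 5 were lower and 3 higher. Irak2, a kinase of the MyD88 complex, had 68.4, 66.8, 50.8, 53.8 and 64.9 TPM in KO libraries, against 172, 167, 144, 123 and 169.6 TPM in HET libraries. Both groups of Irak2 values were tight and separate (-1.33 ± 0.11, adjusted p = 2.2e-12). The LPS receptor genes Tlr4 (0.11 ± 0.21, adjusted p = 0.807), Ly96 (-0.17 ± 0.14, adjusted p = 0.447) and Cd14 (-0.57 ± 0.23, adjusted p = 0.0644) and the adaptor Myd88 (-0.09 ± 0.11, adjusted p = 0.693) were not called. Tlr2, the receptor of bacterial lipoproteins, rose by 1.14 ± 0.16 (adjusted p = 5.8e-07), and Tlr3, the receptor of double-stranded RNA, fell by 1.04 ± 0.16 (adjusted p = 1.8e-06).

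Enzymes that make small mediators changed in both directions. Nos2, the inducible nitric oxide synthase, had 37.7, 7.03, 22.1, 5.71 and 18.3 TPM in KO libraries, against 161, 673, 150.0, 234 and 1070.5 TPM in HET libraries. HET 5 and HET 2 were far above the other HET libraries, and all HET libraries were above all KO libraries (-4.42 ± 0.40, adjusted p = 3.2e-11). Ptgs2, the inducible cyclooxygenase, had 123, 106, 193, 229.7 and 429.7 TPM in KO libraries, against 1511, 1874, 1666, 831 and 2449 TPM in HET libraries. KO 5, the highest KO library of Ptgs2, lay below HET 4, the lowest HET library (-3.04 ± 0.36, adjusted p = 1.2e-08). Ch25h, which makes 25-hydroxycholesterol, fell by 2.13 ± 0.27, and Acod1, which makes itaconate, by 1.04 ± 0.32 (adjusted p = 0.0152). The constitutive cyclooxygenase Ptgs1 rose by 1.45 ± 0.31, and the leukotriene genes Alox5 and Alox5ap by 1.83 ± 0.27 and 1.63 ± 0.39 (adjusted p = 1.4e-06 and 0.00136). Of 25 tested immediate early genes, which cells switch on within minutes of a signal, 14 were lower, among them the phosphatase gene Dusp2 (-2.29 ± 0.30) and the mRNA decay factor gene Zfp36 (-1.49 ± 0.19). Egr2 went the other way, with 2.55, 9.89, 5.57, 25.1 and 22.1 TPM in KO libraries, against 1.20, 1.32, 1.70, 1.04 and 0.772 TPM in HET libraries. KO 4 and KO 5 were highest for Egr2, and KO 1 was just above HET 3 (2.32 ± 0.34, adjusted p = 9.3e-07). Of 13 tested costimulatory and checkpoint ligands, 8 were lower and 2 higher, with Slamf7 lowest (-4.04 ± 0.33, adjusted p = 2.4e-12) and Cd40, Cd86 and Cd80 lower by 1.56, 1.24 and 1.21.

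The genes with the highest differences belonged to no single list. Hp encodes haptoglobin, which binds free haemoglobin, and had 145, 220.5, 137, 141 and 80.1 TPM in KO libraries, against 9.91, 8.44, 6.65, 23.5 and 6.55 TPM in HET libraries. Gda, guanine deaminase, had 15.8, 38.1, 33.3, 31.7 and 20.2 TPM in KO libraries, against 1.47, 1.09, 1.13, 2.50 and 0.908 TPM in HET libraries. HET 4 was the highest HET library for both genes and still lay far below every KO library. They rose by 3.69 ± 0.33 and 3.54 ± 0.28 (adjusted p = 2.0e-11 and 8.3e-13). Fn1, fibronectin, a matrix protein, had 211, 370.3, 222, 417 and 228 TPM in KO libraries, against 29.5, 33.6, 46.8, 88.5 and 23.1 TPM in HET libraries. KO 1 and HET 4 lay closest, without overlap (2.78 ± 0.31, adjusted p = 5.0e-09), and untreated cultures averaged 247 TPM in KO and 218 TPM in HET. Susd2, a membrane protein with a sushi domain, rose by 3.27 ± 0.22 and Wfdc21 by 2.91 ± 0.27.

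Itgax, the integrin CD11c, had 29.7, 107, 58.3, 257 and 233 TPM in KO libraries, against 7.53, 8.45, 27.1, 16.1 and 6.62 TPM in HET libraries. KO 4 and KO 5 were highest and KO 1 was close to HET 3 (3.06 ± 0.41, adjusted p = 2.4e-07). Dcstamp, a membrane protein needed for osteoclast fusion, was at 2.33, 11.1, 2.97, 28.0 and 24.1 TPM in KO libraries, against 0.223, 0.386, 0.680, 1.25 and 0 TPM in HET libraries. The same KO 4 and KO 5 led, and the groups were separate (2.83 ± 0.40, adjusted p = 5.0e-07). Acp5, a phosphatase of osteoclasts and macrophages, rose by 2.83 ± 0.28, and Lpl, lipoprotein lipase, by 2.74 ± 0.31 (adjusted p = 3.6e-10 and 6.5e-09). Itgax, Acp5, Lpl and Trem2 belong to the list of genes of disease-associated microglia, of whose 30 members 8 were higher and 7 lower (median 0.04, and -0.01 with median-of-ratios scaling). Other members of that list were not called, among them Apoe (-0.11 ± 0.09, adjusted p = 0.438), Cst7 (-0.02 ± 0.26, adjusted p = 0.986) and Gpnmb (0.03 ± 0.35, adjusted p = 0.983), and Spp1 fell by 0.92 ± 0.31 (adjusted p = 0.0275). The number called lower was 4 with median-of-ratios scaling and also 4 without KO 2, without KO 3 or without HET 5.

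Homeostatic microglial genes, which LPS lowered in all 23 tested members in HET cultures, were higher in KO for 12 of 23 and lower for none (median 0.48). Trem2, a receptor for lipids, had 42.0, 109.9, 52.2, 108 and 88.6 TPM in KO libraries, against 7.63, 17.3, 12.2, 14.3 and 14.2 TPM in HET libraries. Every KO library was above every HET library (2.46 ± 0.25, adjusted p = 5.6e-10), and both were far below the untreated means of 949.6 TPM in KO and 1038 TPM in HET. Tmem119, a marker of resident microglia, had 11.5, 19.6, 14.8, 15.5 and 10.3 TPM in KO libraries, against 2.28, 2.57, 2.87, 3.93 and 1.60 TPM in HET libraries. The KO libraries with LPS were at about the untreated means of 13.3 TPM in KO and 15.1 TPM in HET (2.07 ± 0.19, adjusted p = 2.5e-11). P2ry13 and P2ry12, purine receptors that steer microglial processes, were higher by 1.22 ± 0.19 and 1.19 ± 0.22 (adjusted p = 3.1e-06 and 5.4e-05), and Csf1r by 0.69 ± 0.11. Cx3cr1, whose promoter drives the Cre, had 47.3, 132, 53.8, 94.5 and 63.5 TPM in KO libraries, against 37.1, 35.9, 54.8, 35.5 and 28.1 TPM in HET libraries. HET 3 lay inside the KO range (0.94 ± 0.21, adjusted p = 5.3e-04), and untreated means were 793 TPM in KO and 866 TPM in HET. Among lineage transcription factors outside this list, Cebpa rose by 0.97 ± 0.11 and Bhlhe40 and Bhlhe41 by 0.80 each, while Irf8, Spi1 and Maf fell by 0.53, 0.36 ± 0.10 and 0.65 ± 0.16.

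Of 11 tested border macrophage and monocyte markers, 5 were higher and 1 lower, which is the list whose summed level separated the genotypes. Ly6c2, a marker of inflammatory monocytes, had 24.1, 23.3, 19.5, 10.8 and 4.10 TPM in KO libraries, against 1.11, 1.40, 1.35, 2.63 and 0.913 TPM in HET libraries, and was at 0 in untreated KO and HET cultures. The groups were separate, with KO 5 close to HET 4 (2.63 ± 0.26, adjusted p = 1.7e-10). Fn1, Pf4, Clec4n and Mrc1 were the other members called higher, and Ms4a7 was lower (-0.98). Clec4n averaged 1212 TPM in KO and 337 TPM in HET, Pf4 1006 and 362 TPM, and Mrc1 7.12 and 2.40 TPM. Clec4n and Pf4 thus held most of the summed level in KO libraries. Both were lower in untreated cultures, Clec4n at 24.7 TPM in KO and 24.3 TPM in HET, and Pf4 at 127 and 136 TPM. Of the 4 members not tested, Cd163 reached at most 0.123 TPM in KO and 0.042 TPM in HET, Lyve1 0.472 and 0.08 TPM, and Plac8 0.174 and 0.476 TPM. Ccr2 was not called (-0.08). Whether other macrophages contribute to the genes that rose was not tested.

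Receptors for debris and sugars rose more often than they fell, with 9 of 20 tested members higher and 3 lower (median 0.40). Marco, a scavenger receptor for bacteria and particles, had 3896, 3535, 2555, 2739.8 and 3096 TPM in KO libraries, against 823, 711, 708, 1135 and 801 TPM in HET libraries. All KO libraries were at least 2 times any HET library (1.93 ± 0.33, adjusted p = 1.5e-05). Clec4n (dectin-2), Olr1 and Clec4a3 rose by 1.88 ± 0.38, 1.58 ± 0.28 and 1.57 ± 0.27, and Siglec1, an interferon-induced lectin, fell by 1.67 ± 0.23. Of 17 complement genes, 4 were higher and 5 lower, with the receptor C3ar1 lowest (-1.45 ± 0.13, adjusted p = 3.2e-11) and C1qa and C1qb not called (0.41 ± 0.22 and -0.25 ± 0.21). Of 19 matrix protease genes and inhibitors, 6 were higher and 6 lower. Mmp13, a collagenase, had 662, 123, 550.3, 266 and 468 TPM in KO libraries, against 6998, 4324, 6196, 4493 and 3787 TPM in HET libraries. Mmp9, a gelatinase, had 569, 363, 669, 639 and 506 TPM in KO libraries, against 189, 76.4, 243, 320.5 and 55.0 TPM in HET libraries. The pair moved in opposite directions with no overlap in either (-3.82 ± 0.31 and 1.89 ± 0.41, adjusted p = 1.7e-12 and 4.3e-04). Lyz2, lysozyme, was among the most abundant transcripts and rose by 1.43 ± 0.19, with 23352 to 31949 TPM in KO libraries against 8219 to 13635 TPM in HET libraries. Saa3, the acute phase gene with 36262 to 99246 TPM in KO and 41198 to 51232 TPM in HET, was not called (0.47 ± 0.44, adjusted p = 0.528).

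Metabolic and organelle genes changed by smaller amounts, and mostly upward. In the cholesterol synthesis and uptake list, 20 of 23 tested members were higher and none lower (median 0.86), against 12.5% of all genes called higher. Fdps, an enzyme of the pathway, had 48.8, 85.8, 63.4, 71.3 and 61.7 TPM in KO libraries, against 22.4, 28.1, 39.7, 26.2 and 20.7 TPM in HET libraries. KO 1 was closest to HET 3, the highest HET library, and the groups did not overlap (1.25 ± 0.29, adjusted p = 9.5e-04). Stard4, which moves sterols, and Idi1, which makes their precursors, rose by 1.39 ± 0.23 and 1.18 ± 0.27. LPS had lowered all 23 in HET cultures. KO 2 was the highest KO library for 16 of the 23, and without it 13 were called higher.

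In the NRF2 list of oxidative stress genes, 17 of 21 were higher and none lower (median 0.70). The stretches of Gsta3 and Gclm are shown because they hold the antioxidant response element that NRF2 is known to bind, searched as TGACNNNGC on either strand and in capitals below.
Gsta3 chr1:21240424-21240512: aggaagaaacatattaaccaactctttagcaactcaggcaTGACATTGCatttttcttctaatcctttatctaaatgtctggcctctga
Gclm chr3:122245383-122245471: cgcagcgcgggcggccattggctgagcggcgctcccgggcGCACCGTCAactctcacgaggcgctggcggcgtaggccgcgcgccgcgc

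Both stretches are on the plus strand, and the matches begin 121 and 134 bases before the starts. The letters were in 9 of 18 promoters of the list (50%), in 1812 of all 10833 (16.7%) and in 264 of 1529 genes called higher (17.3%). Gsta3, a glutathione transferase, had 4.38, 20.2, 3.99, 20.7 and 18.9 TPM in KO libraries, against 0.199, 0.514, 0.347, 0.682 and 0.336 TPM in HET libraries. KO 1 and KO 3 were the low KO libraries, and no library of the other genotype came near them (3.09 ± 0.25, adjusted p = 2.9e-12). Gclm, a subunit of the enzyme that starts glutathione synthesis, had 143, 357, 219, 615 and 499 TPM in KO libraries, against 66.6, 116, 170.0, 95.3 and 133 TPM in HET libraries. HET 3 was above KO 1, so the groups of Gclm overlapped (1.53 ± 0.28, adjusted p = 3.9e-05). Nqo1, a quinone reductase, and Cat, catalase, rose by 2.29 ± 0.33 and 1.36 ± 0.20. For 5 of the 21 genes KO and HET libraries did not overlap, against 6.5% of all genes with KO higher. KO 1 had a list mean of 6.89, inside the HET range of 6.37 to 6.90, while the other KO libraries had 7.26 to 7.98. Hmox1, haem oxygenase, was called (0.96 ± 0.35, adjusted p = 0.0439), but not with median-of-ratios scaling or with no filter on low values.

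Of 37 lysosomal genes, 20 were higher and 5 lower (median 0.29), and 16 of those higher did not overlap. Hexa, a subunit of hexosaminidase, had 283, 341, 259, 321 and 356 TPM in KO libraries, against 132, 161, 171, 191 and 186 TPM in HET libraries. Tfeb, the transcription factor that governs lysosomal genes, had 9.81, 11.1, 10.0, 10.8 and 7.62 TPM in KO libraries, against 4.10, 4.85, 4.81, 3.04 and 3.24 TPM in HET libraries. Both genes were separate in all libraries (0.89 ± 0.11 and 1.13 ± 0.13, adjusted p = 3.8e-08 and 7.7e-09). Gaa and Lipa, hydrolases of glycogen and of lipid esters, rose by 0.74 ± 0.09 and 0.76 ± 0.13. The proteases Ctsc and Ctss and the cholesterol carrier Npc2 were lower. With median-of-ratios scaling 11 were higher and 3 lower. The E-box letters CACGTGAC, known from the promoters of lysosomal genes, were in 9 of 28 promoters of the list (32.1%) and in 4.67% of all promoters. In the oxidative phosphorylation list, 25 of 35 nuclear-encoded subunit genes were higher and none lower (median 0.33), with Cox7b (0.57 ± 0.10, adjusted p = 1.1e-05) and Ndufb3 (0.49 ± 0.10, adjusted p = 2.9e-04) highest. The count was 16 without HET 5, the lowest HET library for 31 of the 35, and 16 in a fit of only the 10 libraries.

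TBK1 is known to act in autophagy and in RIPK1 signalling. Of 26 autophagy genes, 4 were higher and 3 lower (median 0.01, and -0.04 with median-of-ratios scaling), near the shares of all genes. Atg5, needed to conjugate LC3, had 41.4, 52.4, 45.0, 45.3 and 47.4 TPM in KO libraries, against 32.3, 34.7, 32.7, 34.0 and 30.9 TPM in HET libraries. That small difference was clear of the spread (0.48 ± 0.06, adjusted p = 9.7e-08), while the calls of Wipi2, Rb1cc1 and Ulk1 were each lost under several alternatives. The autophagy receptors Sqstm1 (-0.28 ± 0.15, adjusted p = 0.189), Optn (0.25 ± 0.11, adjusted p = 0.112) and Tax1bp1 (-0.18 ± 0.07, adjusted p = 0.07) were not called. Of 28 genes of RIPK1 signalling and necroptosis, 11 were lower and 1 higher (median -0.10), and 8 of those lower did not overlap. Mlkl, the protein that ruptures the membrane in necroptosis, had 36.1, 13.4, 23.6, 20.1 and 22.1 TPM in KO libraries, against 67.4, 78.2, 62.7, 66.4 and 106 TPM in HET libraries, with no overlap (-1.72 ± 0.20, adjusted p = 1.1e-08). Ripk2 and Casp8 fell by 1.00 ± 0.13 and 0.59 ± 0.09. Ripk1 was lower by -0.20 ± 0.07 (adjusted p = 0.0321) and Ripk3 was not called (-0.17 ± 0.18, adjusted p = 0.625).

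Few genes were called between the same genotypes without LPS. In untreated cultures 1 gene of 15908 was called (0.00629%), Tbk1 itself (-0.80, adjusted p = 0.0213), and 290 had an unadjusted p under 0.05. Untreated list medians were -0.36 for IFIT, -0.25 for antiviral, -0.18 for Schlafen and -0.11 for GTPase genes, against -0.04 over all genes. No member of these lists was called there. The untreated test used the spread shared by all groups of the model, so small differences could be missed. The difference between the genotype differences was tested directly, as KO minus HET with LPS less KO minus HET without it. It was above 0 for 1223 genes (7.69%) and below 0 for 978 (6.15%), and 1076 and 1331 with median-of-ratios scaling. Of the 1827 genes lower with LPS 965 were also called below 0 here, and of the 1985 higher 1191 were called above 0. These differences of differences were most negative for Slfn4 (-5.15), Ifit1bl1 (-4.99), Slfn1 (-4.93), H2-Q6 (-4.92) and Ccl7 (-4.82), and most positive for Hp (3.71), Gda (3.50), Susd2 (3.27), Gsta3 (3.01) and Wfdc21 (2.91). By list, 14 of 15 GTPases, all 6 IFIT and 31 of 40 antiviral genes were below 0, and 11 of 23 homeostatic, 12 of 23 cholesterol, 10 of 21 NRF2 and 20 of 35 oxidative phosphorylation genes above 0.

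**Figure D5:**
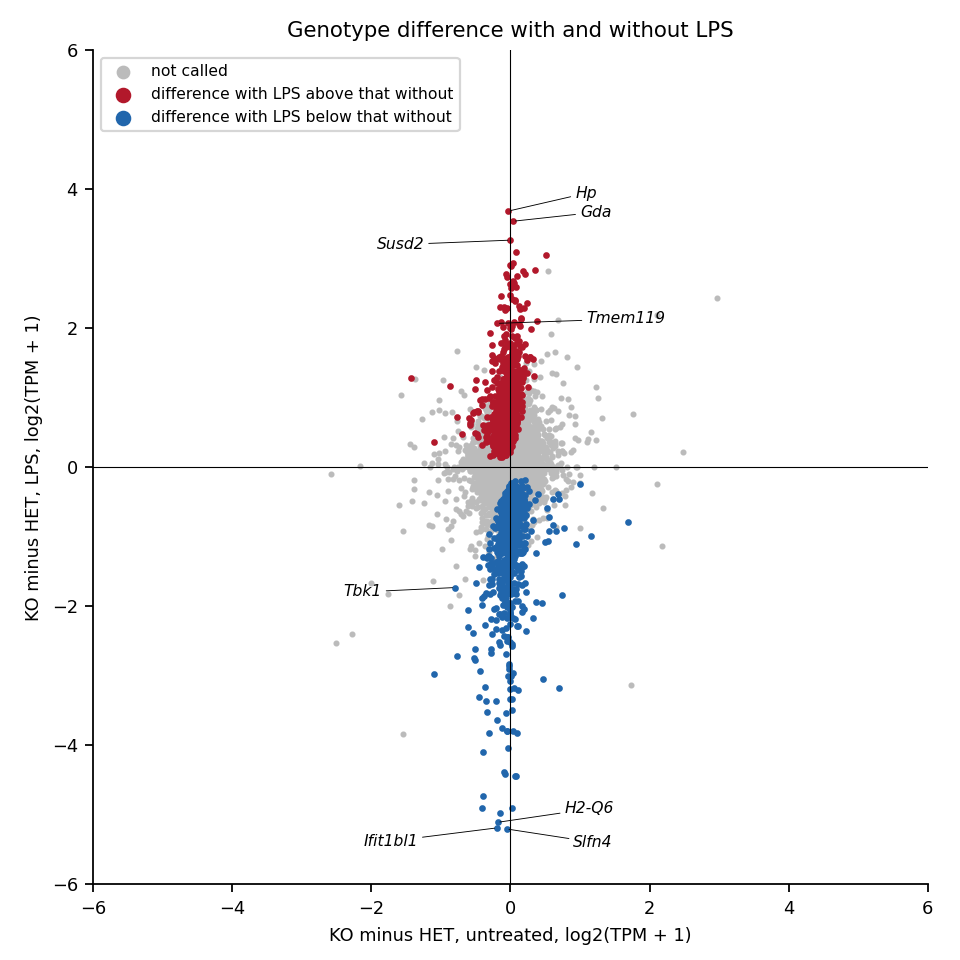
KO minus HET difference of log2(TPM + 1) in untreated cultures (x axis) and with LPS (y axis), 1 point per tested gene, on equal scales. Genes whose difference with LPS was called above (red) or below (blue) that without LPS spread along the vertical axis, from Slfn4 at -5.20 to Hp at 3.69, and lie near 0 on the horizontal axis.

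An RNA analogue, poly(I:C) (pIC), which acts through TLR3 and cytosolic sensors and at a dose not given in the sources used here, was given to KO and HET cultures in libraries that share none with the LPS comparison. Of 13919 genes tested there, 229 were higher in KO (1.65%) and 501 lower (3.6%), and 289 and 216 with median-of-ratios scaling. Of the 1764 genes lower with LPS and tested there, 98 were lower and 73 higher with pIC (5.56% and 4.14%). The 98 were 19.6% of the genes lower with pIC, and the 73 were 31.9% of the genes higher with pIC. Of the 1881 higher with LPS, 44 were higher and 91 lower with pIC (2.34% and 4.84%), and the 44 were 19.2% of the genes higher and the 91 were 18.2% of the genes lower with pIC. Few members of the interferon-stimulated lists were called with pIC: 1 antiviral gene was higher and 2 lower, 1 IFIT gene was higher, and no GTPase was called. Slfn4 averaged 34.9 TPM in KO and 41.2 TPM in HET with pIC (-0.38 ± 0.42, adjusted p = 0.692). Whether the effect of genotype differed between LPS and pIC was not tested, since the tables were normalized separately.

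WT cultures with LPS share no Cre with the other genotypes, and comparisons with them share libraries with the ones above, so values are only set side by side. Between HET and WT 2 genes were called (0.0126%), Rpsa and a pseudogene of it, with 889 genes at an unadjusted p under 0.05. Tbk1 itself averaged 60.5 TPM in HET and 90.9 TPM in WT and was not called (HET minus WT -0.58 ± 0.14, adjusted p = 0.274). A gene not called there may therefore still differ. Slfn4 averaged 4.29 TPM in KO, 161 TPM in HET and 232 TPM in WT, Nos2 18.2 TPM in KO, 458 TPM in HET and 891 TPM in WT, and Hp 145 TPM in KO, 11.0 TPM in HET and 6.63 TPM in WT. Rpsa, a ribosomal protein gene 59.5 kb from Cx3cr1 on chromosome 9, had 1114, 1319.6, 1142, 1238 and 1113 TPM in KO libraries, against 926, 848, 863, 875 and 678 TPM in HET libraries and a mean of 524 TPM in WT. KO was above HET in every library (0.50 ± 0.08, adjusted p = 9.9e-06), while untreated means were 1839.7 TPM in KO, 1884 TPM in HET and 1144 TPM in WT. Of the other 80 cytosolic ribosomal protein genes, 36 were higher in KO than in HET with LPS and none lower (median 0.20). Genes around Tbk1, where KO carries 2 floxed copies and HET 1, were called in 6 cases higher and 7 lower of 44 within 5 Mb (29.5%), beside 27.1% of 719 genes on the whole of chromosome 10. In untreated cultures no gene within 5 Mb other than Tbk1 was called.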

How the data were processed

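RNA-seq libraries of mouse microglia were deposited as tables of TPM per gene made by the authors. Per the labels' protocols, 300 ng of RNA per culture went into Kapa mRNA HyperPrep libraries. Tools listed, without versions, are Trimmomatic, FastQC, Picard and DRAGEN on the mm10 genome, per the submitters' processing notes. No strand setting for the counting is stated, so reads of a gene and an overlapping antisense gene may not be told apart. TPM keeps no sequencing depth, so depth per library is unknown and no counting interval is given. Precision rests on the spread between cultures, pooled over all groups of a fit.

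From the 44 libraries of the untreated, LPS and IL4 table, genes that reached 1 TPM in 4 or more were kept (15908 of 32070). Values were tested as log2(TPM + 1) with limma 3.58.1 in R 4.3.3 (tables read with data.table, version 1.17.8), using 1 model of all 9 groups with an intensity trend and Benjamini-Hochberg adjusted p-values, called under 0.05. All 9 groups share 1 estimate of the spread per gene, so an SE can understate the spread of genes that varied most among the KO cultures. For Cxcl13 the SD of the log2 values with LPS was 2.48 in KO and 0.22 in HET, and for Fcgr4 1.77 and 0.44. An SE can also overstate the spread of genes that varied more in other groups, so a gene not called may still differ. For Il1b the SD was 0.52 in KO and 0.15 in HET, while the SE of the difference was 0.57. The SE and adjusted p of such genes do not measure the spread of the compared cultures alone. The pIC table was fitted on its own (15 libraries, 13919 genes). Python 3.11.15 with pandas 2.3.3 and matplotlib 3.10.9 made the summaries, promoter searches and figures. No column belonged to another sample and no columns were identical. Scripts were tested on simulated data.

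The comparison, the gene lists and their members were chosen with earlier results of these data known. Genes named were Tbk1 and Cx3cr1, the 12 highest and 12 lowest called genes whose libraries did not overlap and whose higher mean reached 5 TPM, without predicted, RIKEN or pseudogene models, up to 4 called genes per list (6 for antiviral genes) and the 5 highest and 5 lowest differences between LPS and untreated. Other genes were named after their values were seen. Lists are described by counts and medians without a test. Alternatives covered the pseudocount, filters, scaling, library choice, array weights, a replicate block and leaving out each library. Results of some genes are not reported here.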

Additional observations from a re-analysis of the deposited data

Results flagged for a closer look

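Of 328 groups of 5 libraries looked at among the named genes, 4 held a library whose gap to its nearest neighbour exceeded 0.71 of the group's range on the log2(TPM + 1) scale, while chance gives about 1 in 20. Il19 was at 8.31 TPM in HET 4, where the next HET library had 19.7 TPM. Il27 was at 15.2 TPM in HET 4, where the next had 36.2 TPM. Sdf2l1, an ER chaperone partner, was at 155 TPM in KO 4, where the next KO library had 230.2 TPM. Wipi2, an autophagy protein, was at 18.0 TPM in KO 1, where the next had 25.1 TPM.

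The KO minus HET difference itself differed between LPS and untreated cultures for many genes by limma's interaction contrast, with 1223 genes more positive with LPS and 978 more negative. The 5 most negative differences of differences were -5.15 for Slfn4, -4.99 for Ifit1bl1, -4.93 for Slfn1, -4.92 for H2-Q6 and -4.82 for Ccl7. The 5 most positive were 3.71 for Hp, 3.50 for Gda, 3.27 for Susd2, 3.01 for Gsta3 and 2.91 for Wfdc21.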

How the results depend on the processing

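None of the 173 named-gene results changed sign under the alternatives run, while the list medians of the CXC chemokines, disease-associated genes and autophagy genes, all within 0.04 of 0, fell below 0 with median-of-ratios scaling. With only the 10 KO and HET libraries with LPS (13382 genes tested), 1290 genes were higher and 1246 lower. Leaving out 1 library at a time gave 1523 (without HET 5) to 2175 (without KO 1) genes higher and 1609 to 1853 lower, and 970 to 1449 above 0 and 847 to 1027 below 0 for the difference between LPS and untreated. Without KO 1 and KO 3, an alternative chosen after seeing the data, 1925 were higher and 1525 lower. Median-of-ratios scaling gave 1913 higher and 2385 lower, with a median difference of -0.01 over all genes. The untreated comparison had 2 calls with no filter on low values, and 0 calls with median-of-ratios scaling, with only the 20 KO and HET libraries and with the Y-linked level as a term (the last also chosen after seeing the data), against 290 genes at an unadjusted p under 0.05 in the model of all groups.

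Libraries with the same replicate number deviated together with correlations of 0.06, 0.14, -0.07, 0.12 and 0.18 between KO and HET, so the numbers were not taken as pairs. These correlations do not cover LPS and untreated libraries of 1 genotype with the same number, so they cannot decide whether those are paired. With a replicate block 2561 genes were higher and 2192 lower with LPS, 1869 were above 0 and 1272 below 0 for the difference between LPS and untreated, and with the block in only the 10 libraries 1290 were higher and 1129 lower. With pIC the block gave 417 higher and 794 lower, median-of-ratios scaling 289 higher and 216 lower, and leaving out 1 library 149 to 215 higher and 251 to 523 lower. Of these results, 16 of the 163 tested lost their call with only the 10 libraries, 6 with median-of-ratios scaling, 5 with quantile normalization, 3 to 10 when 1 library was left out and 0 with a pseudocount of 0.1. The cause of these changes was not tested beyond the fewer libraries and genes in the smaller fits. Depth per library is unknown, so low TPM values carry an error that could not be given.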

Other observations

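Of 15 tested S100 and annexin genes, 8 were higher in KO and 1 lower (median 0.29), and 5 were higher with median-of-ratios scaling. S100a4 had 20.6, 47.6, 15.7, 22.0 and 25.4 TPM in KO libraries, against 2.13, 19.3, 6.62, 10.9 and 5.01 TPM in HET libraries (1.65 ± 0.47, adjusted p = 0.00676), with HET 2 inside the KO range. Among the Fc receptors, Fcgr4 had 186, 17.9, 54.4, 10.9 and 9.01 TPM in KO libraries, against 129.8, 138, 76.0, 121 and 175 TPM in HET libraries. KO 1 was the highest of all 10 libraries for Fcgr4 and the other KO libraries were below every HET library (-2.07 ± 0.39, adjusted p = 7.6e-05).

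Cell cycle inhibitors split. Cdkn2a had 6.67, 12.5, 8.86, 11.0 and 14.7 TPM in KO libraries, against 1.92, 3.21, 2.38, 2.32 and 2.49 TPM in HET libraries (1.73 ± 0.18, adjusted p = 1.1e-09), and the untreated means were 12.1 TPM in KO and 10.7 TPM in HET. Cdkn1a fell by 0.72 ± 0.20 (adjusted p = 0.00558). Of 39 cell cycle genes 2 were higher and 2 lower (median 0.17), against 12.5% and 11.5% of all genes. Of 24 glycolysis genes 3 were lower, near the 11.5% of all genes, and none was higher (median -0.09). The 3 were the hexokinases Hk3 (-1.05), Hk1 (-0.87) and Hk2 (-0.63). Of 20 genes of the ATF4 stress response 4 were lower and 2 higher (median -0.03), against 11.5% and 12.5% of all genes. Ddit3, which encodes the stress factor CHOP, had 49.6, 22.5, 28.6, 25.3 and 24.5 TPM in KO libraries, against 97.3, 109, 64.0, 72.0 and 127 TPM in HET libraries, without overlap (-1.63 ± 0.15, adjusted p = 6.0e-11). Phgdh, the first enzyme of serine synthesis, rose by 1.60 ± 0.26 (adjusted p = 5.8e-06).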
